A study of Mus musculus with 54 samples.

Results

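Interferon-stimulated effector genes were followed in primary mouse microglia, the macrophages that reside in the brain. The 46 genes were chosen by symbol as interferon-induced genes, with earlier results of these data known. Many of their products act on viruses, microbes or nucleic acids. All 46 are among the 16632 genes of the count table, and all 46 passed the filter on low counts that left 13169 genes for testing. Microglia of C57BL/6 mice came from neonatal brains, with the cells of 2 brains pooled per flask and shaken off an astrocyte layer, so each sample is a pooled culture and not 1 animal. Donor cells received 1 µM alpha-synuclein (aSyn, the protein that aggregates in Parkinson's disease) coupled to the dye Atto-488 for 14 h. Acceptor cells received a violet dye for 15 min and no aSyn, were mixed with donors and were then sorted apart from them by flow cytometry.

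There were 14 groups. Untreated cells gave 6 libraries and cells with aSyn and no co-culture gave 4. Donors and acceptors gave 3 libraries each at 0 min of co-culture, 4 each at 15, 30 and 150 min, 3 and 4 at 60 min, and 4 and 3 at 300 min. The labels list co-cultures from 15 min onwards and do not say how the 0 min cells were handled, nor whether untreated cells and cells with aSyn alone were dyed or sorted. The replicate number in the titles, 1 to 4, is called experiment here, and each number goes with 1 cell passage (3, 1, 2 and 2). Numbers 2 and 4 each occur in 2 untreated libraries, whose counts were summed, which left 4 untreated units and 52 units in all. No 0 min library carries number 4, no donor library at 60 min carries number 2, and no acceptor library at 300 min carries number 3. The labels do not say that the numbers stand for separate preparations, so the p-values measure the spread between these samples.

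Type I interferons bind a receptor at the cell surface that activates the kinases JAK1 and TYK2. These phosphorylate STAT transcription factors, which join IRF9 in a complex that binds interferon-stimulated response elements (ISRE) in the promoters of its target genes. Their products sense viral RNA and DNA, block translation, cut or modify nucleic acids and tag proteins with the ubiquitin-like protein ISG15. In the brain, microglia respond to interferon and also appear in an interferon-responsive state in ageing, injury and neurodegeneration.

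Promoter windows were searched for this element. A window from 250 bases before to 50 after a RefSeq gene start (GRCm38.p6) was matched for 34 of the 46 genes, and 18 of these 34 (52.94%) hold the ISRE letters GAAANNGAAA or their reverse complement TTTCNNTTTC, against 3.99% of 27025 genes with such a window. The letters TTCNNNGAA, the gamma-activated site, which read the same on both strands, are in 9 of 34 (26.47%) and in 9.55% of all genes. Of the 18 genes, 15 have all bases of an ISRE match before the start, 7 have 2 or more matches, and 12 of the 34 have neither motif. The stretches shown come from genes of several roles. They run 5′ to 3′ on the gene's strand, with ISRE letters in capitals and up to 20 bases on either side.
Isg15: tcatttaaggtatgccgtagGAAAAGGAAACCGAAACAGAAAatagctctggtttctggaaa
Ifit1: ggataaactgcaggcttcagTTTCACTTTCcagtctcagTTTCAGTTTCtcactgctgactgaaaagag
Ifit3: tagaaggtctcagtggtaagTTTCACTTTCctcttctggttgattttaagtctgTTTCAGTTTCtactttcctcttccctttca
Rsad2: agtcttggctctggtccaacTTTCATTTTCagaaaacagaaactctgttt
Oas1a: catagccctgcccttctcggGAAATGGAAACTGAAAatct
Gbp7: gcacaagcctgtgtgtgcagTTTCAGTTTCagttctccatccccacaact
Trim30a: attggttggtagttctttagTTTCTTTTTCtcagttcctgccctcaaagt
They lie at chr4:156200855-156200916 (minus strand), chr19:34640765-34640833 (plus), chr19:34583353-34583436 (plus), chr12:26456543-26456592 (minus), chr5:120907526-120907565 (minus), chr3:142530263-142530312 (plus) and chr7:104465200-104465249 (minus). Isg15 shows overlapping matches that repeat GAAA, and Ifit1 and Ifit3 each hold a pair of separate matches. A match of letters is a description and not a measured binding site.

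The 46 genes lie on 15 chromosomes, with 7 on chromosome 11 and 6 on chromosome 16. Library totals ran from 7807389 to 15537493 counts with a median of 13036175.5. Normalised counts (CPM, scaled to a common library size) are given per unit with TMM scaling. Reads come from the 3′ end of transcripts, so CPM follows transcript number without a length term, but gene levels are not ranked against each other here. Csf1r (559 to 2434 CPM), the receptor for colony-stimulating factor on microglia, was high in every unit. P2ry12, Tmem119 and Sall1, markers of microglia in the intact brain, were at or below 13.1 CPM. Siglech, from a list of markers of plasmacytoid dendritic cells, had at most 7 counts in a library. The 4 tested genes of that list reached 790 CPM (Bst2), 483 CPM (Tcf4), 10.6 CPM (Cox6a2) and 3.53 CPM (Ccr9). Bst2 is also among the 46 genes. The markers differ this much in level, so they do not decide whether such cells were present.

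Untreated cells of experiment 2 stood apart before any comparison. The median log2 CPM of the 46 genes was 5.73, 8.15, 6.19 and 5.19 in the untreated units of experiments 1 to 4, and both libraries of experiment 2 were high (8.13 and 8.14). Isg15 had 1516 and 1041 CPM in these libraries, and 61.6 to 211 CPM in the other 4 untreated libraries. Comparisons with untreated cells rest on this unit, so the counts of called genes are also given without it. The library numbers in the labels set experiment 4 apart from the other 3. It has the lowest untreated level, and its units gave 13.4 to 22.1% of counts to the ribosomal RNA precursor Rn45s, against 1.42 to 13.5% in the other experiments.

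**Figure D1:**
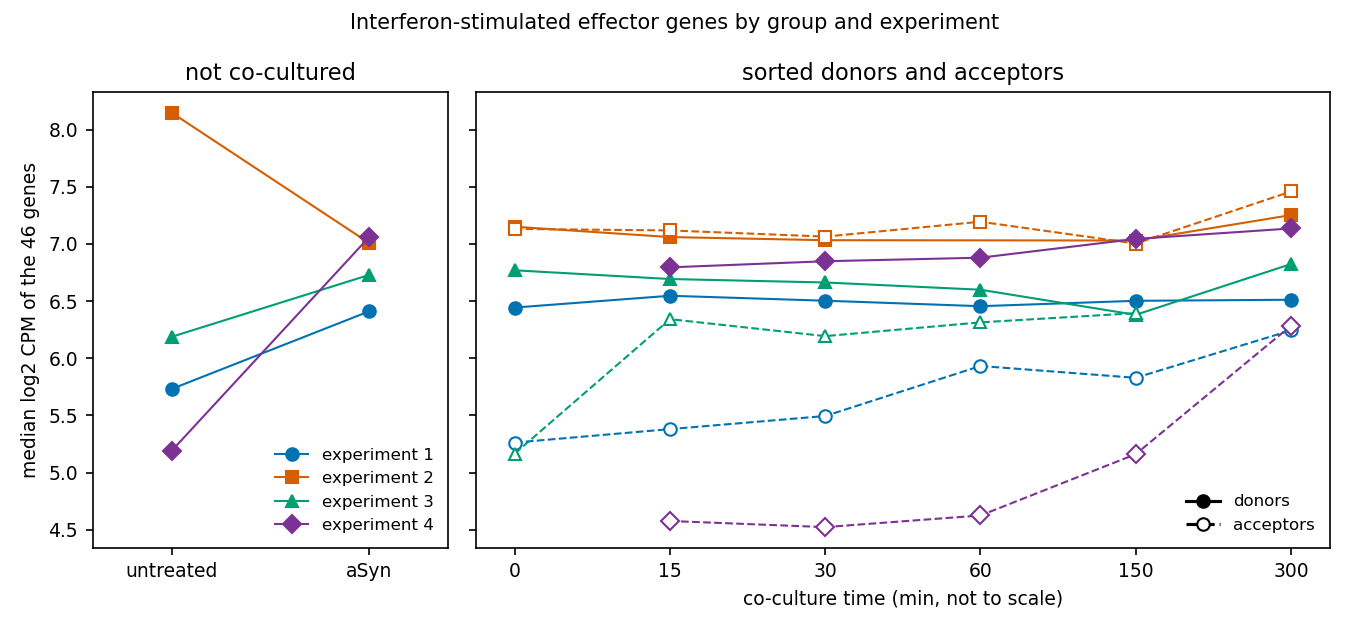
Median log2 CPM of the 46 genes in each of 52 units (vertical axis) by group and co-culture time (horizontal axis, min, not to scale), with 1 colour and marker per experiment. The untreated unit of experiment 2 is the highest of all (8.15), donors stay between 6.38 and 7.25 at all times, and acceptors of experiment 4 go from 4.58 at 15 min to 6.28 at 300 min.

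Cells with aSyn lay closer together across the 4 experiments than untreated cells did. The median log2 CPM of the 46 genes was 6.41, 7.01, 6.73 and 7.06 with aSyn. Within experiments the median difference from untreated cells was 0.44, -1.20, 0.31 and 1.66: 42, 0, 38 and 45 of the 46 genes were higher with aSyn. Experiment 2 thus ran against the other 3. No gene was called in aSyn-treated against untreated cells, where 2.5% of all genes were called by edgeR, and none with the replicate number as a block, where 19.2% were. At an unadjusted p under 0.05 there were 1 and 4 genes, and DESeq2 called 0. Without the untreated unit of experiment 2, a choice made after seeing the data, 1 gene was called higher and, with the block, 14 were, against 2.26% and 10.8% of all genes called higher.

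The 14 genes that were higher under that setting include members of most roles. They were Oasl1 (log2 fold change 3.22), Gbp2 (2.83), Gbp3 (2.38), Ifi44 (2.22), Isg20 (2.04), Gbp7 (1.78), Isg15 (1.72), Zbp1 (1.65), Rsad2 (1.65), Bst2 (1.61), Oas3 (1.57), Mx1 (1.56), Cmpk2 (1.36) and Nmi (0.79). Their adjusted p ran from 0.00157 for Oasl1 to 0.0424 for Nmi (edgeR with block). Gbp2 is the gene called without the block as well (3.09, SE 0.82, adjusted p = 0.0241). With that unit kept, the median log2 fold change of the 46 genes was -0.05 without and 0.26 with the block, and that of all genes was -0.04 and -0.05.

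Early acceptors had lower levels of most of these genes than untreated cells, and how many passed the test depended on the fit. The mean of the 0, 15, 30 and 60 min acceptors was set against untreated cells. These times were pooled because earlier results of these data showed a similar level, a choice made after seeing the data. Later comparisons with early acceptors use the same pool. All 46 log2 fold changes were negative with a median of -0.86, while the median over all genes was -0.03. Eif2ak2, the kinase PKR that halts translation on double-stranded RNA, was the 1 gene called (-0.71, SE 0.18, adjusted p = 0.0426), and 0.357% of all genes were called lower. With the block, 23 of the 46 genes fell, against 6.42% of all genes, and the median was -0.74. In bulk RNA, fewer cells of a type and less RNA per cell cannot be told apart.

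The size of this difference varied with the experiment and with the untreated unit of experiment 2. Median differences within experiments 1 to 4 were -0.45, -1.19, -0.51 and -0.52, and 34, 46, 34 and 40 of the 46 genes were lower in early acceptors. With the block and without that unit, 3 genes fell (Trim30a -0.72, Slfn5 -0.74 and Parp9 -0.63), the median was -0.31, and 6.18% of all genes were called lower. The count of 3 of the 46 is close to that share. Without the block and without that unit, the acceptors of experiment 2 stay in the fit with no untreated partner: 0 genes were called (1 at an unadjusted p under 0.05), the median was 0.11, and 0.357% of all genes were called lower. Leaving out experiments 1 to 4 in turn, without the block, gave 0, 2, 0 and 6 called genes, all of them lower, against 0.0%, 0.277%, 0.0458% and 1.06% of all genes called lower. The last of these is the value within experiments 1 to 3. Libraries of several times from 1 experiment are not independent, so the 0 to 60 min libraries of each experiment were also summed, a choice made after seeing the data. No gene was then called without the block (0.0% of 12925 genes lower) and 3 were with it (Slfn5 -1.05, Trim30a -0.96 and Parp9 -0.90, against 1.4% of all genes).

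Astrocyte genes moved with this comparison in experiments 2 to 4. The summed level of 9 astrocyte markers was 11.7, 20.2, 90.0 and 155.7 CPM in the untreated units of experiments 1 to 4. Early acceptors held 8.99 to 14.6, 11.7 to 15.5, 35.96 to 49.6 and 27.0 to 42.1 CPM in the same order, so those of experiment 1 lay around its untreated unit. With the block 7 of the 9 were lower in early acceptors. In cells with aSyn the sum was 11.2 to 38.0 CPM and 5 of 9 were lower with the block. Gfap and Aqp4, which define astrocytes, reached at most 15.1 and 10.7 CPM and had a median of 0.128 and 0 CPM over all units. The summed level of 9 oligodendrocyte-lineage genes was 121.5 to 605 CPM in untreated units and 87.9 to 279.0 CPM in early acceptors, and 6 of 9 were lower with the block. Without the untreated unit of experiment 2 and with the block, 7 of the 9 astrocyte genes and 5 of the 9 oligodendrocyte-lineage genes were lower in early acceptors. The part of these cells in the difference was not tested.

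Averaged over experiments, the median difference from untreated cells was nearest to 0 at 300 min, where experiments 1 and 4 lay above untreated cells and experiment 2 below. Within experiments 1 and 4 it was nearest to 0 at 150 min. The median log2 fold change at 0, 15, 30, 60, 150 and 300 min was -0.84, -0.85, -0.94, -0.80, -0.61 and -0.16, and with the block -0.85, -0.73, -0.80, -0.65, -0.40 and -0.04. These comparisons share the untreated units, and the 0 min groups lack experiment 4 and the 300 min acceptors experiment 3. Experiments differed over time: the median from 0 to 150 min was -1.20, -0.12, -0.47, -0.25 and -0.22 in experiment 3, and from 0 to 300 min it was -0.66, -0.44, -0.47, -0.23, 0.08 and 0.41 in experiment 1. In experiment 2 it was -1.20, -1.21, -1.22, -1.16, -1.28 and -0.84, and in experiment 4, from 15 min, -0.55, -0.53, -0.48, 0.14 and 0.85. No gene was called at any single time without the block, where 0.0%, 0.0%, 0.0304%, 0.0152%, 0.0607% and 0.0% of all genes were called lower. At an unadjusted p under 0.05 there were 11, 17, 18, 12, 5 and 0 genes, and DESeq2 called 0 at each time. With the block 2, 2, 8, 3, 0 and 0 genes fell, against 0.607%, 1.18%, 2.04%, 2.07%, 2.47% and 0.311% of all genes. Slfn5, a Schlafen protein, fell at 0 (-1.18), 15 (-1.09), 30 (-0.99) and 60 min (-0.95), and Trim30a, a TRIM-family regulator of innate signalling, at 15 (-0.85), 30 (-1.09) and 60 min (-0.80). Without the untreated unit of experiment 2, 2 genes fell at 30 min with the block (Trim30a -0.89, Parp9 -0.79), against 2.14% of all genes called lower, and none at the other times. The fit without the block and without that unit called none at any time (0 to 5 of the 46 at an unadjusted p under 0.05).

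The level in acceptors was higher again at 300 min in each of the 3 experiments sampled. Median differences from the early acceptors of the same experiment were 0.80 in experiment 1, 0.36 in experiment 2 and 1.52 in experiment 4, with 42, 45 and 46 of the 46 genes higher. No gene was called without the block (0.0% of all genes higher; 14 of the 46 at an unadjusted p under 0.05, and 0 by DESeq2). With the block 5 genes rose, against 0.205% of all genes: Slfn5 (1.15), Parp14 (0.97), Trim30a (0.92), Parp9 (0.86) and Eif2ak2 (0.79), with adjusted p from 0.0155 to 0.0400. With the early libraries of each experiment summed, none was called with or without the block, as in 0.0% of all genes in both fits.

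Experiment 2 changed that count too. Without it 5 genes were called higher without the block and 11 with it, against 0.135% and 0.405% of all genes. The 11 were Slfn5 (1.52), Parp9 (1.10), Eif2ak2 (1.004), Trim30a (1.19), Parp14 (1.30), Mx2 (1.88), Dtx3l (0.90), Ifit1 (1.94), Slfn8 (1.12), Ifi204 (0.96) and Ifih1 (1.05). At 150 min no gene was called against early acceptors with or without the block (0.0683% and 0.00759% of all genes, 2 and 0 of the 46 at an unadjusted p under 0.05), and the median was 0.30 and 0.22. Against untreated cells the 300 min acceptors differed by a median of 0.41, -0.84 and 0.85 in experiments 1, 2 and 4.

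Donors stayed within a narrow range. Their median log2 CPM over the 46 genes stayed between 6.38 and 7.25 in all experiments and at all times. No gene was called between early donors and cells with aSyn alone: the median was -0.17 (-0.12 with the block), 0.0% and 0.038% of all genes were called, and 0 of the 46 had an unadjusted p under 0.05 in either fit. At 300 min donors had a median of 0.30 above early donors (0.23 with the block), no gene was called, and 0.289% and 2.82% of all genes were. At an unadjusted p under 0.05 there were 0 and 1 of the 46, and DESeq2 called 0 in both comparisons.

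Early donors had more of these transcripts than early acceptors. Of the 46 genes, 19 were higher in donors at 0 to 60 min, against 9.16% of all genes, and 44 with the block, against 17.6% of all genes. Ifi27l2a and Ube2l6 were the 2 not called. The median log2 fold change was 0.60 (0.81 with the block), beside -0.03 for all genes. Donors and acceptors of the same experiment and time formed 14 early pairs, and the donor was higher in 14 of 14 for 10 genes: Cmpk2, Dhx58, Gbp2, Gbp3, Herc6, Isg15, Mx1, Oasl1, Rsad2 and Zbp1. The fewest were 8 of 14, for Ifi27l2a, Oas3 and Ube2l6. These pairs include several times of 1 experiment, so they are not independent. The ranges of early donors and early acceptors overlapped for all 46 genes. Neither the pairs nor the ranges were counted over all genes, so no background share stands beside them.

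Markers of cell types also differed between early donors and early acceptors. The summed level of 14 microglial genes was 10569 to 11707 CPM in donors of experiment 1 against 8621 to 8931 CPM in acceptors, and 2699 to 2922 against 4951 to 5528 CPM in experiment 4. In experiments 2 and 3 donors held 7955 to 8363 and 9027 to 10074 CPM, and acceptors 8766 to 9981 and 9756 to 12991 CPM. So the sum was higher in donors of experiment 1, lower in those of experiments 2 and 4, and overlapped in experiment 3. With the block 5 of the 14 were higher and 5 lower in donors, against 17.6% and 21.3% of all genes. Endothelial and mural genes had a sum of 13.2 to 35.2 CPM in donors and 5.16 to 16.9 CPM in acceptors. In either fit 2 of 5 tested genes were higher in donors, against 9.16% of all genes without and 17.6% with the block. Donors had less of the 9 astrocyte genes in experiment 3 (11.6 to 31.3 against 35.96 to 49.6 CPM) and experiment 4 (11.1 to 22.6 against 27.0 to 42.1 CPM). In experiments 1 and 2 the ranges overlapped. The median was higher in donors of experiment 1 (15.2 against 12.7 CPM) and lower in those of experiment 2 (12.4 against 13.6 CPM). With the block 2 of the 9 astrocyte genes and 3 of the 9 oligodendrocyte-lineage genes were lower in donors, where 21.3% of all genes were called lower. The astrocyte count is near that share. The part of these differences in the result was not tested.

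Acceptors were below donors in experiments 1, 3 and 4 and level with them in experiment 2. In experiment 1 the median difference over the 46 genes was 1.11, 0.98, 0.93, 0.66, 0.53 and 0.37 at 0, 15, 30, 60, 150 and 300 min. In experiment 3 it was 1.28, 0.33, 0.52, 0.36 and 0.17 from 0 to 150 min, and in experiment 4 it was 2.38, 2.23, 2.19, 1.77 and 0.84 from 15 to 300 min. In experiment 2 it lay between -0.07 and 0.08 at all 5 times, and 18 to 28 of the 46 genes were higher in the donor. Without experiment 2, 43 genes were called without the block and 44 with it, against 8.02% and 14.8% of all genes. Without experiments 1, 3 or 4, without the block, 3, 5 and 5 were called higher, against 6.96%, 5.81% and 9.3% of all genes, and the last of these is the value within experiments 1 to 3. With the early libraries of each experiment summed, 0 genes were called without the block and 8 with it (Rsad2 1.77, Cmpk2 1.58, Mx1 1.53, Dhx58 1.23, Parp14 0.87, Rtp4 0.86, Trex1 0.82 and Parp9 0.72), against 0.34% and 5.45% of all genes.

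**Figure D2:**
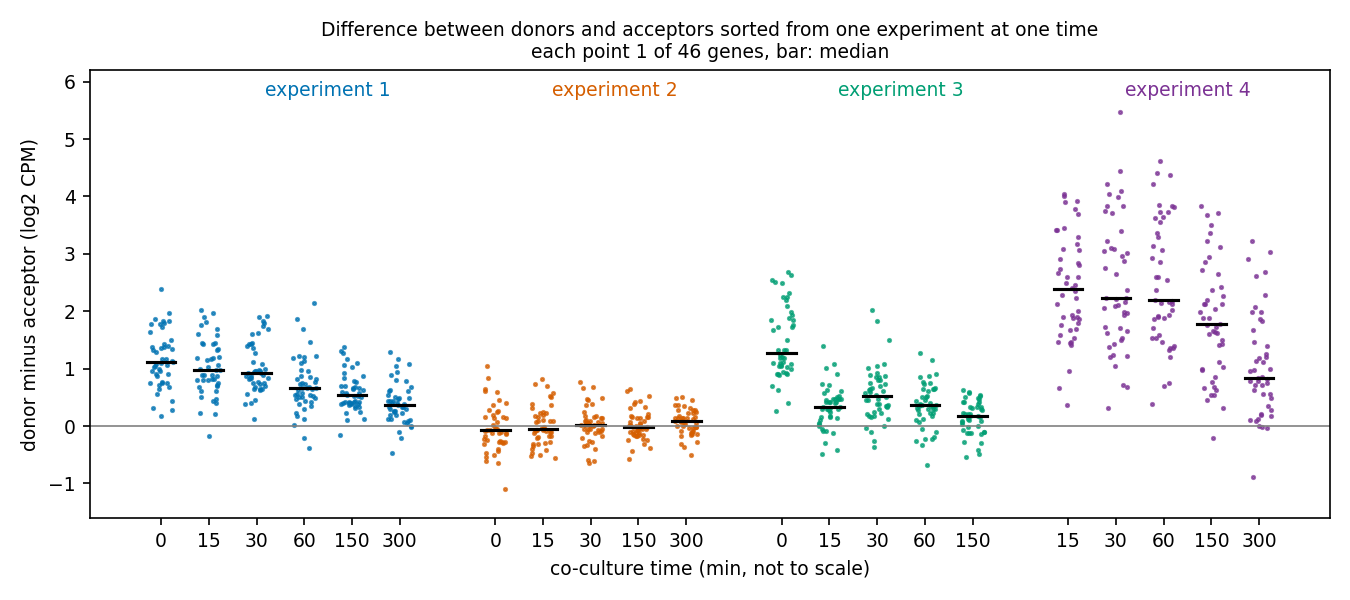
Difference in log2 CPM between donors and acceptors of the same experiment and time (vertical axis) for each of 46 genes (points), by experiment and co-culture time (horizontal axis, min, not to scale), with bars at the medians. Medians are above 0 in experiments 1, 3 and 4 and smaller at the last time than at the first, in experiment 4 at 0.84 after 2.38, and lie near 0 in experiment 2.

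At later times the gap was smaller and did not reach the threshold for any gene. The median was 0.44 at 150 min (0.62 with the block) and 0.28 at 300 min (0.39), where 0.167% and 0.0304% of all genes were called, and 5.19% and 1.38% with the block. At an unadjusted p under 0.05 there were 4 genes at 150 min (14 with the block) and 0 at 300 min (3). Whether the change from early times to 300 min differed between donors and acceptors was tested directly. No gene was called in either fit (0.0152% and 0.0532% of all genes, 1 and 6 of the 46 at an unadjusted p under 0.05), and the median difference of changes was -0.36 (-0.47 with the block). DESeq2 called 0 genes in this test and in donors against acceptors at 150 and 300 min. With the block and without experiment 2, Slfn5 was called (-1.30, SE 0.24, adjusted p = 0.0327, against 0.03% of all genes called lower).

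**Figure D3:**
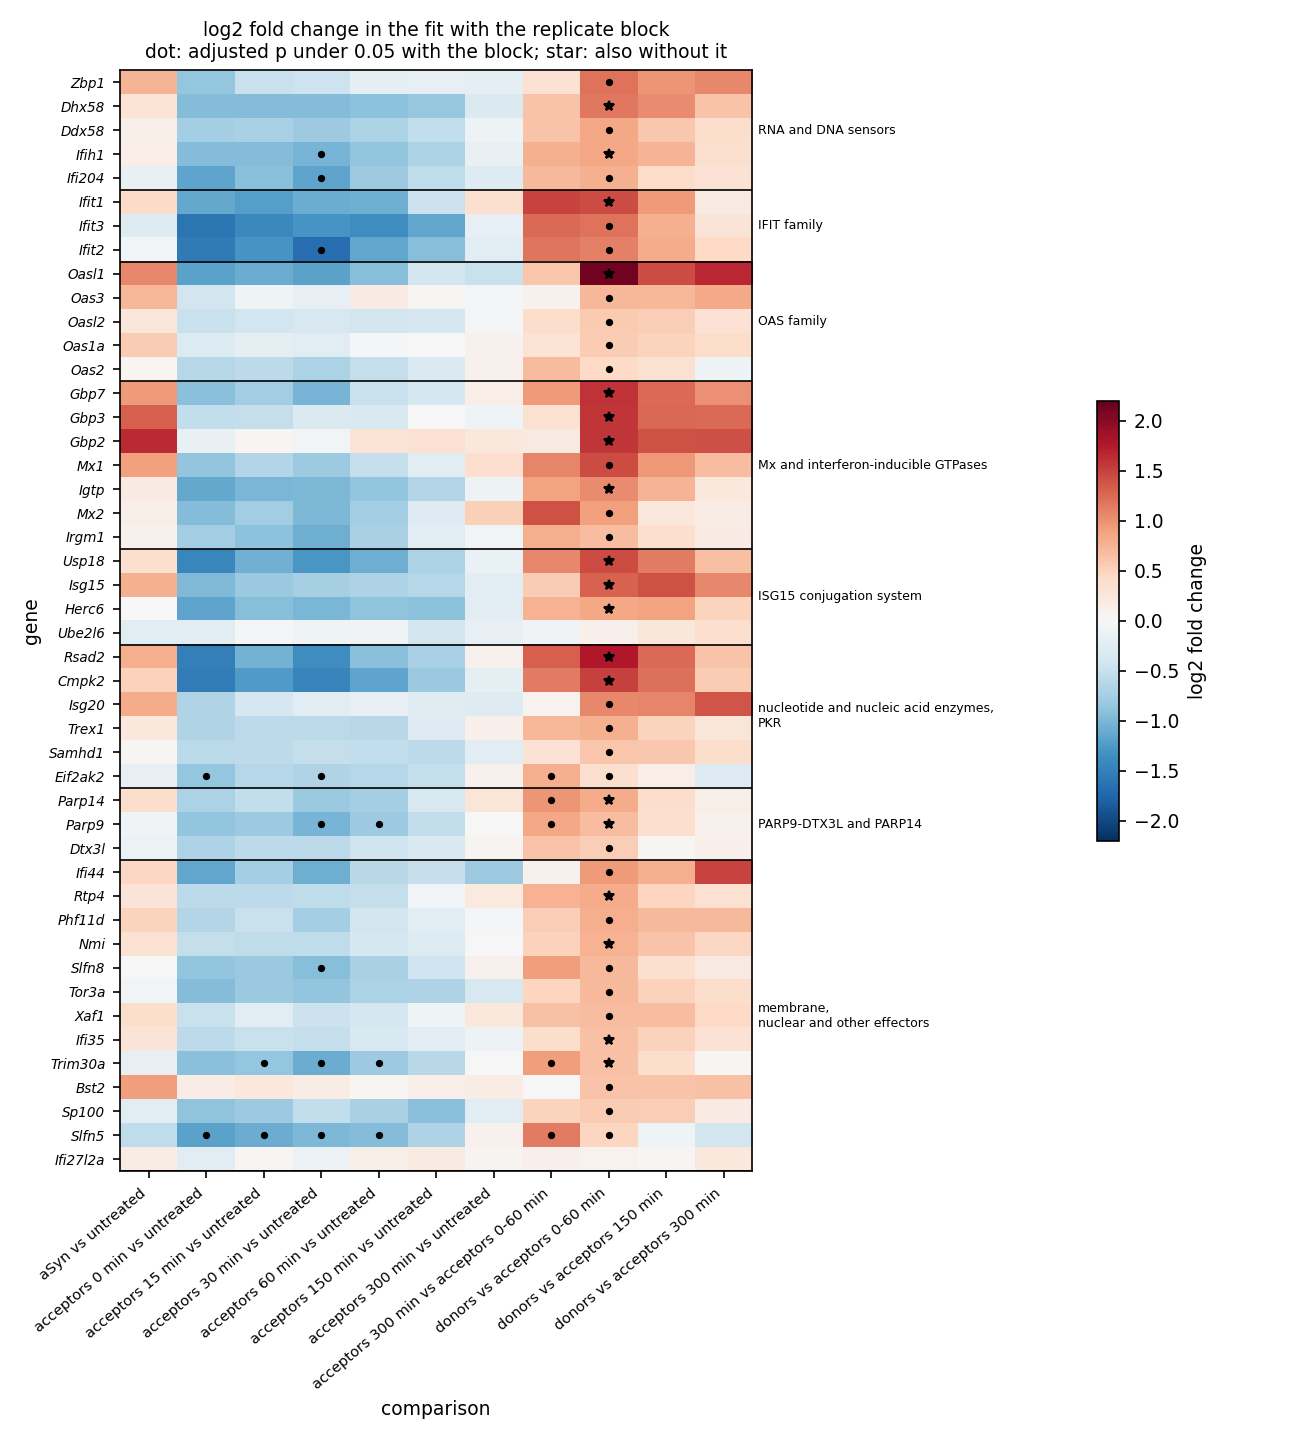
Log2 fold change of the 46 genes (rows, grouped by role) in 11 comparisons (columns) from the fit with the replicate block, as colour. Dots mark an adjusted p under 0.05 with the block and stars also without it: marks are most frequent in the column of donors against acceptors at 0 to 60 min, where 44 of 46 genes carry one.

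Sensors of RNA and DNA start innate immune signalling. The 5 genes are Ifih1 (MDA5, which binds long double-stranded RNA), Ddx58 (RIG-I), Dhx58 (LGP2), Zbp1, which binds Z-form nucleic acids, and Ifi204, which binds DNA. Ifih1 had 48.5, 191, 65.1 and 32.0 CPM in untreated cells of experiments 1 to 4 and 77.7, 83.0, 70.6 and 90.4 CPM with aSyn. Early acceptors held 20.2 to 75.9 CPM with a median of 35.9, and at 300 min acceptors of experiments 1, 2 and 4 held 69.7, 83.0 and 56.3 CPM. Early donors held 51.5 to 94.0 CPM with a median of 66.5. The lowest early acceptor belonged to experiment 4, and the early acceptors of experiment 2 overlapped the donors. Over all units Ddx58 ran from 21.1 to 268.96 CPM, Dhx58 from 10.7 to 174, Zbp1 from 11.1 to 246.5 and Ifi204 from 65.3 to 799.6 CPM. Counts by role against untreated cells include the untreated unit of experiment 2. Without it, Trim30a, Slfn5 and Parp9 are the 3 genes called with the block, a count close to the share of all genes called lower. Counts by role with early libraries use several times per experiment, which are not independent. With these libraries summed, fewer genes were called. Among the sensors it was Dhx58 alone, in early donors against acceptors with the block (1.23). In early acceptors against untreated cells 4 of 5 sensors fell with the block: Ifi204 (-1.01), Ifih1 (-0.95), Dhx58 (-0.95) and Ddx58 (-0.74). In early donors against acceptors 2 were higher without the block, Dhx58 (0.94, SE 0.25) and Ifih1 (0.71, SE 0.20), and all 5 with it.

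The IFIT proteins bind foreign RNA and block its translation. Ifit1 had 153, 1035, 247.7 and 40.1 CPM in untreated cells of experiments 1 to 4 and 271.7, 320.03, 363 and 346 CPM with aSyn. In early acceptors it ran from 22.7 to 355 CPM with a median of 114, and the 300 min acceptors held 286.2, 528 and 239.1 CPM in experiments 1, 2 and 4. Acceptors of experiment 4 had 22.7 to 26.7 CPM up to 60 min, 111 at 150 min and 239.1 at 300 min, while donors of that experiment had 241.9 to 412 CPM throughout. Ifit3 had 287, 2489.6, 332 and 81.5 CPM in untreated cells and 321, 408, 408 and 285.96 CPM with aSyn, so the untreated unit of experiment 2 was above every other value of the gene. Its early acceptors ranged from 28.9 to 667 CPM with a median of 175 and its early donors from 235.8 to 499.7 CPM with a median of 421. All 3 IFIT genes fell with the block in early acceptors against untreated cells (Ifit1 -1.13, Ifit2 -1.42, Ifit3 -1.42). Compared with early acceptors, Ifit1 was higher in early donors without the block (1.03, SE 0.34, adjusted p = 0.0299) and all 3 with it.

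The OAS family makes the second messenger 2-5A, which activates RNase L, or, as OAS-like proteins, modulates RNA sensing. Oasl2 had 179, 447, 165 and 75.3 CPM in untreated cells of experiments 1 to 4 and 195, 225.8, 199 and 231.4 CPM with aSyn. The range in early acceptors was 41.2 to 292.3 CPM with a median of 141, and early donors from 178 to 237.6 CPM with a median of 201.97. The early donors lay within the range of the early acceptors. Over all units Oas1a ran from 65.9 to 425 CPM, Oas2 from 16.9 to 122 and Oas3 from 14.9 to 369.7 CPM. Oas2 fell with the block in early acceptors against untreated cells (-0.61), the 1 of 5 to do so. Oasl1 had the largest difference of the 46 between early donors and acceptors with the block (2.12, SE 0.37, adjusted p = 1.9e-05) and was the 1 of 5 called without it (1.74). It was not called in either fit with the early libraries of each experiment summed. Its early acceptors held 1.78 to 35.7 CPM with a median of 4.52, and its early donors 12.2 to 86.2 CPM with a median of 16.8.

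The GTPases restrict viruses (Mx proteins) or attack the vacuoles of intracellular microbes (guanylate-binding proteins, Gbp, and immunity-related GTPases). Gbp2 had 17.9, 188, 42.0 and 10.6 CPM in untreated cells of experiments 1 to 4 and 78.9, 159, 138 and 421 CPM with aSyn. It was higher with aSyn in experiments 1, 3 and 4, in experiment 4 from 10.6 to 421 CPM, and lower in experiment 2. Early acceptors ranged from 17.3 to 124 CPM with a median of 44.1, and early donors from 75.3 to 432 CPM with a median of 151. Against untreated cells Gbp2 did not pass the test with aSyn (log2 fold change 1.62, SE 0.75, adjusted p = 0.255, and 0.0616 with the block). Averaged over experiments, its early acceptors differed little from untreated cells (-0.14, SE 0.58, and 0.03 with the block). Within experiments 1 to 4 the difference was 0.79, -1.18, 1.03 and 0.92, so the average joins opposite directions and early acceptors were lower in experiment 2 only.

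Gbp3 and Gbp7 are relatives of Gbp2. Gbp3 had 6.66, 54.7, 12.1 and 4.45 CPM in untreated cells and 23.5, 35.7, 27.3 and 147 CPM with aSyn. Gbp7 had 11.1, 92.2, 14.3 and 7.28 CPM and 32.9, 37.4, 25.05 and 110.2 CPM. Both were highest in experiment 2 among untreated cells and highest in experiment 4 with aSyn. In early acceptors Gbp3 ranged from 5.25 to 23.0 CPM with a median of 8.57 and Gbp7 from 5.39 to 40.2 CPM with a median of 9.67. In early donors Gbp3 ranged from 18.9 to 138 CPM with a median of 29.1 and Gbp7 from 21.3 to 94.8 CPM with a median of 32.1. For both genes the early donors of experiment 4 were far above all acceptors, while those of experiment 2 lay nearer to the acceptors of the same experiment. Mx1 had 36.5, 371, 81.3 and 15.0 CPM in untreated cells, 123, 211.9, 116 and 145 CPM with aSyn, and 101, 212.6 and 56.7 CPM in the 300 min acceptors of experiments 1, 2 and 4, after 10.0 to 155 CPM with a median of 45.8 in early acceptors. In early acceptors against untreated cells 2 of the 7 GTPase genes fell with the block, Igtp (-0.997) and Irgm1 (-0.87). In early donors against acceptors 4 of 7 were higher without the block, Gbp3 (1.81, SE 0.43), Gbp2 (1.63, SE 0.40), Gbp7 (1.48, SE 0.39) and Igtp (0.84, SE 0.26), and all 7 with it. Igtp overlaps Irgm2 on the same strand, and reads of related Gbp genes may be split by the counting, so these levels are uncertain.

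In the ISG15 conjugation system, ISG15 is the tag, Ube2l6 the conjugating enzyme, Herc6 the ligase and Usp18 the protease that removes the tag and damps receptor signalling. Isg15 had 125, 1245, 211.9 and 69.97 CPM in untreated cells of experiments 1 to 4 and 217.9, 535, 453 and 1394 CPM with aSyn. In early acceptors it ran from 67.6 to 379 CPM with a median of 128, and the 300 min acceptors held 162, 483 and 321 CPM in experiments 1, 2 and 4. Early donors ranged from 215.4 to 1029 CPM with a median of 379. At 300 min donors of experiments 1 to 4 held 248.5, 584, 331 and 1565 CPM, and the unit of experiment 4 was the highest of all 52. Acceptors at 150 min held 136, 389, 208.7 and 149.7 CPM in experiments 1 to 4. Usp18 had 20.3, 154, 41.7 and 12.9 CPM in untreated cells, 30.3, 60.3, 51.5 and 98.0 CPM with aSyn, and 35.2, 73.6 and 26.9 CPM in 300 min acceptors. Usp18 (-1.21) and Herc6 (-0.996) fell with the block in early acceptors against untreated cells, whereas Isg15 (-0.80, adjusted p = 0.241) did not pass. Compared with early acceptors, early donors had higher levels, without and with the block, of Isg15 (1.30, SE 0.39), Usp18 (1.23, SE 0.35) and Herc6 (0.84, SE 0.24), but in neither fit of Ube2l6 (-0.08 and 0.11).

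**Figure D4:**
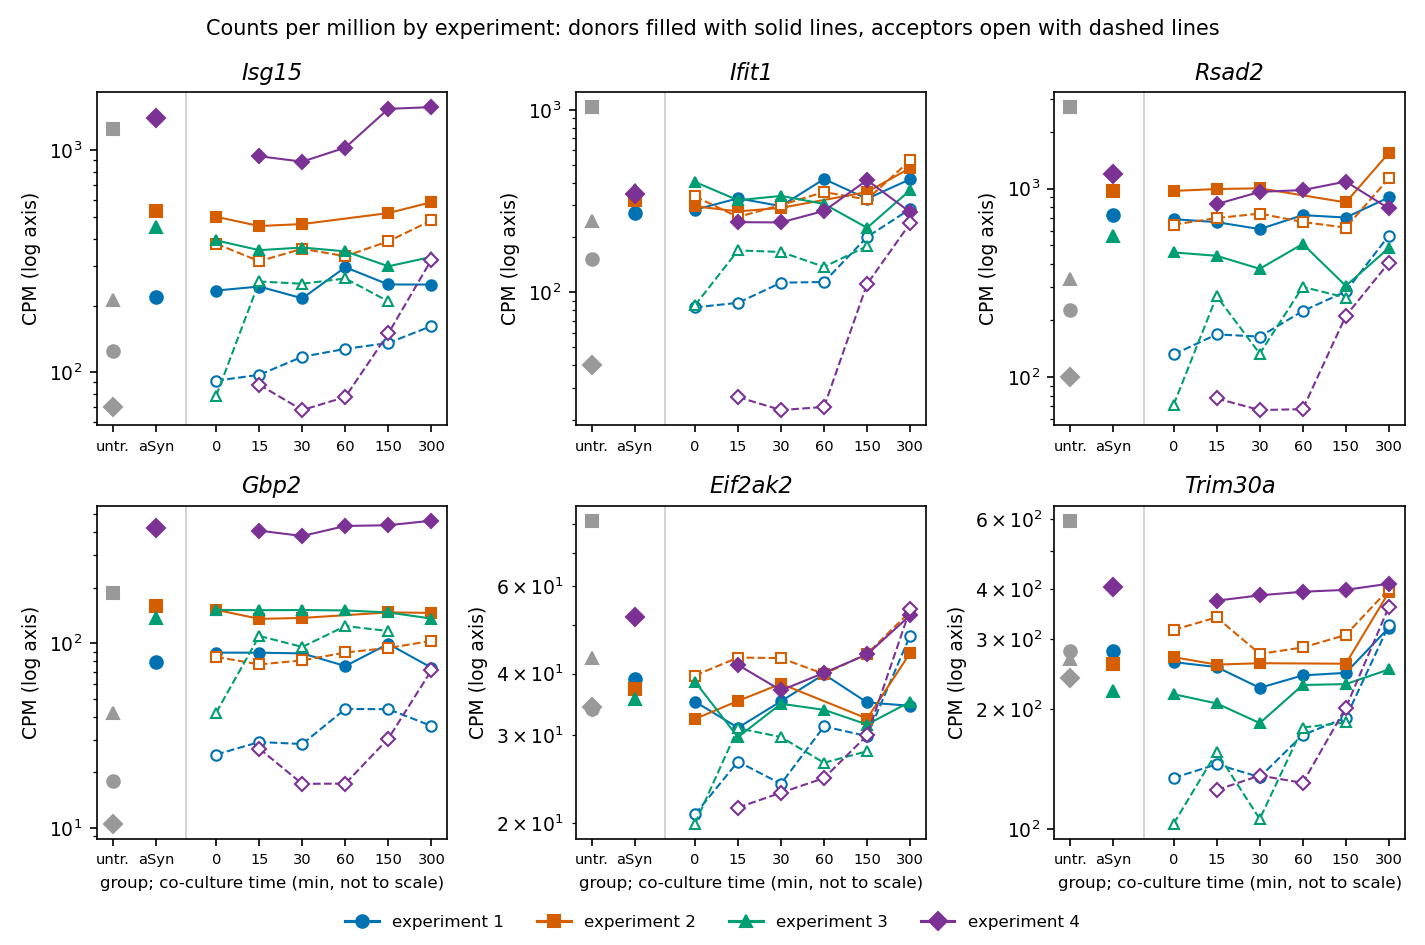
CPM of 6 genes (vertical log axes) in untreated cells (grey), cells with aSyn, donors (filled) and acceptors (open) by co-culture time (horizontal axis, min, not to scale), with 1 marker per experiment and 1 point per unit. Rsad2 in acceptors of experiment 4 goes from 77.2 CPM at 15 min to 405 CPM at 300 min, and Eif2ak2 in the 3 acceptor units at 300 min (47.7 to 53.9 CPM) lies above all early acceptors.

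Enzymes of nucleotides and nucleic acids include Rsad2 (viperin, which makes a chain-terminating nucleotide), its neighbour Cmpk2, a nucleotide kinase, the nucleases Isg20 and Trex1, Samhd1, which depletes deoxynucleotides, and Eif2ak2. Rsad2 had 226.7, 2709, 332 and 101 CPM in untreated cells of experiments 1 to 4 and 727, 973, 562 and 1202 CPM with aSyn. The range in early acceptors was 67.0 to 738 CPM with a median of 169, and the 300 min acceptors held 564, 1134 and 405 CPM in experiments 1, 2 and 4. Early donors ranged from 376 to 1005 CPM with a median of 707, so they overlapped the acceptors of experiment 2 and no others. At 300 min donors held 899.8, 1548, 485 and 786 CPM in experiments 1 to 4, and acceptors at 150 min held 285.1, 622, 264.8 and 211.4 CPM. Cmpk2 had 70.5, 686, 137 and 35.9 CPM in untreated cells, 177, 267.4, 197 and 261.96 CPM with aSyn and 138, 241.97 and 90.8 CPM in 300 min acceptors. In early acceptors against untreated cells Cmpk2 (-1.35), Rsad2 (-1.21), Eif2ak2 (-0.69) and Samhd1 (-0.56) fell with the block. In early donors against acceptors Rsad2 (1.31, SE 0.40) and Cmpk2 (1.20, SE 0.32) were higher without the block and all 6 with it. Over all units Isg20 ran from 4.81 to 583 CPM, Samhd1 from 132 to 941 and Trex1, which overlaps Atrip on the same strand, from 22.7 to 429.8 CPM.

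Eif2ak2 stayed between 19.9 and 81.3 CPM over all units. It had 33.9, 81.3, 42.9 and 34.3 CPM in untreated cells of experiments 1 to 4 and 39.0, 37.2, 35.5 and 51.9 CPM with aSyn. Early acceptors ranged from 19.9 to 43.1 CPM with a median of 26.6, acceptors at 150 min held 29.9, 43.8, 27.9 and 30.0 CPM, and those at 300 min held 47.7, 53.3 and 53.9 CPM. All 3 of the 300 min acceptors were above all 15 early acceptors, which among the effector genes held for Eif2ak2 and Parp14 only. This was not counted over all genes, so no background share stands beside it. The call of Eif2ak2 in early acceptors against untreated cells was lost without experiment 1, 2 or 3 (adjusted p = 0.355, 0.0585 and 0.251). The call was also lost with no filter on low counts (adjusted p = 0.0558), and when only the groups compared were fitted (0.257).

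PARP9 and DTX3L form a complex that modifies proteins in the interferon response, and PARP14 is a related ADP-ribosyltransferase. Parp14 had 147, 296.8, 189 and 155 CPM in untreated cells of experiments 1 to 4 and 227.3, 186, 195 and 437 CPM with aSyn. In early acceptors it ran from 80.6 to 211.1 CPM with a median of 96.5, and the 300 min acceptors held 233.4, 227.7 and 268.6 CPM in experiments 1, 2 and 4. Early donors ranged from 159.8 to 359 CPM with a median of 186, and donors at 300 min held 217.9, 250.9, 227.5 and 340.3 CPM. Early acceptors of experiments 1, 3 and 4 stayed below the lowest early donor. Parp9 had 62.8, 141, 66.6 and 44.2 CPM in untreated cells, 25.7 to 78.8 CPM with a median of 33.7 in early acceptors, and 68.8, 95.5 and 79.5 CPM in 300 min acceptors. Parp9 (-0.87) and Parp14 (-0.70) fell with the block in early acceptors, and both were higher in early donors than acceptors without the block (Parp14 0.80, SE 0.17, adjusted p = 0.000939; Parp9 0.56, SE 0.17). Parp9 and Dtx3l overlap on opposite strands, and whether the counting used strand is not given in the sources used here.

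The 13 remaining genes act at membranes, in the nucleus or in ways less well defined. Trim30a had 280.3, 595, 266.97 and 239.8 CPM in untreated cells of experiments 1 to 4 and 279.99, 259.98, 222.3 and 406 CPM with aSyn. The range in early acceptors was 103 to 340.1 CPM with a median of 145, and the 300 min acceptors held 325, 400.5 and 361 CPM in experiments 1, 2 and 4. In each experiment every early acceptor was below the untreated unit of the same experiment. Slfn5 had 164, 492.5, 186 and 112 CPM in untreated cells, 164, 140.2, 161 and 103 CPM with aSyn, 47.0 to 233.01 CPM with a median of 102 in early acceptors and 208.7, 281.95 and 177 CPM in 300 min acceptors. Its acceptors of experiment 4 at 300 min (177 CPM) were above the donors of that experiment at any time (74.6 to 95.3 CPM). Bst2 (tetherin, which holds budding virions at the cell surface) had 52.2, 366, 94.6 and 120.2 CPM in untreated cells and 104, 237.7, 173 and 790.1 CPM with aSyn.

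In early acceptors against untreated cells 5 of these 13 fell with the block: Slfn5 (-1.05), Trim30a (-0.92), Tor3a (-0.84), Slfn8 (-0.83) and Sp100 (-0.74). Bst2 did not (0.15, SE 0.34). In the early donors 4 of the 13 were higher without the block, Nmi (0.66), Rtp4 (0.61), Trim30a (0.56) and Ifi35 (0.55), and 12 with it. Ifi27l2a, a small mitochondrial protein, was the exception (-0.09, and 0.07 with the block). Rtp4 overlaps Masp1 on the other strand.

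The 46 genes varied together across units. The correlation of a gene's log2 CPM with the mean of the other 45 over 52 units ran from 0.632 (Ifi27l2a) to 0.975 (Igtp), and Slfn5, Bst2 (0.654) and Ube2l6 (0.682) were next lowest. These units share experiments and groups, so the values are a description. Experiment took a median of 30.2% of a gene's variance and group 34.8%, against 33.9% and 24.95% over all tested genes. Ifi27l2a was the extreme, with 84.7% for experiment and 4.09% for group, and Parp14 had the largest part for group (55.1%). After Igtp, Ifi35 (0.974) and Mx1 (0.970) had the next highest correlations.

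Genes upstream of the response were read from lists of ligands, receptors, transcription factors and regulators. With the block, 8.95% of all genes were called higher and 10.2% lower with aSyn, and 3.52% higher and 6.42% lower in early acceptors. Without the untreated unit of experiment 2 these shares were 10.8% and 11.3% with aSyn, and 4.54% and 6.18% in early acceptors. Ifnb1, which encodes interferon beta, was the 1 of 21 interferon genes in the table and was near the limit of detection, at 0 to 2.21 CPM. It was lower with the block in early acceptors than in untreated cells (-2.17, SE 0.73, adjusted p = 0.0491), where untreated units held 0 to 1.18 CPM and early acceptors 0 to 0.564 CPM. The call was lost without the block (adjusted p = 0.461), without that unit (0.181 with the block) and with early libraries summed (0.168 with the block). It was higher with the block in early donors than acceptors (1.59, adjusted p = 0.0316), but not without it (0.416) or with early libraries summed (0.189 with the block). At these counts a fold change depends on a few reads.

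Receptors and kinases gave no call without the block in either comparison with untreated cells. With it 4 of 8 were higher and 1 lower with aSyn, and 1 was higher in early acceptors: Ifngr2, a chain of the interferon gamma receptor, rose in both (0.54 and 0.37). With the block and that untreated unit left out, 3 were higher and 1 lower with aSyn, and Ifngr2 rose in both comparisons (0.61 and 0.43). Of 12 tested STAT and IRF genes, 2 fell with the block in early acceptors, among them Stat2 (-0.92, adjusted p = 0.00221). Without that unit 1 of 12 was lower, and Stat2 did not pass (-0.57, adjusted p = 0.0799 with the block). Stat2 was higher at 300 min than in early acceptors with the block (0.997, adjusted p = 0.0400), which was lost with early libraries summed (1.02, adjusted p = 0.389 with the block). Irf5 was the 1 of 12 that rose with aSyn, with the block (0.38, SE 0.10), and it also did without that unit (0.52). Irf7, which amplifies interferon induction, held 34.3 to 1186 CPM in untreated units, and did not pass with aSyn (adjusted p = 0.164 with the block) or in early acceptors (0.697). Without that unit and with the block it rose with aSyn (1.74, adjusted p = 0.0323).

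Among 17 genes that lead to interferon induction, Tlr3, a receptor for double-stranded RNA, was the 1 that fell in early acceptors with the block (-0.82), and 3 rose with aSyn, among them the kinase Ikbke (1.34, SE 0.22). Ikbke held 13.9 to 56.5 CPM in untreated units and 49.3 to 96.5 CPM with aSyn. When the untreated unit of experiment 2 was left out, Tlr3 did not pass (-0.31, adjusted p = 0.371 with the block) and, with the block, 5 of the 17 rose with aSyn, Ikbke (1.55) among them.

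Of 16 negative regulators, Trim24 was lower with aSyn without the block (-0.66, SE 0.15, adjusted p = 0.00691), where 0.896% of all genes were called lower, at 7.07 to 9.06 CPM against 9.38 to 14.9 CPM in untreated units. With the block 4 of the 16 rose with aSyn: Socs3 (2.99) and the inhibitors of signalling Tnfaip3 (1.08), Ptpn1 (0.40) and Ptpn2 (0.39). Trim24 (-0.67) and Pias1 (-0.35, adjusted p = 0.0191) fell. Trim24 was also lower with the untreated unit of experiment 2 left out and no block (-0.79, against 1.34% of all genes), and with the block the same 4 genes rose, while Pias1 did not pass (adjusted p = 0.101). In early acceptors 2 of the 16 fell and 1 rose with the block, and 1 rose without that unit. Socs1 was among those that fell (-1.33, adjusted p = 0.0108, and 0.0529 without the block), but not without that unit (-0.70, adjusted p = 0.272 with the block).

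Of 77 tested other interferon-stimulated genes, Pml, which builds nuclear bodies, was the 1 lower in early acceptors without the block (-1.05, SE 0.23, adjusted p = 0.0174). With the block 25 of the 77 were lower and 1 higher, and their median was -0.64, beside -0.74 for the 46 genes. With the untreated unit of experiment 2 left out, their median was 0.15 without the block, and with the block 6 were lower and 3 higher, with a median of -0.12. Pml was then called with the block (-0.50, adjusted p = 0.0331) and not without it (0.505). With early libraries summed and the block, 5 of the 77 were lower. With aSyn and the block 6 of the 77 were higher and 2 lower, and without that unit 21 were higher and none lower. In early donors against acceptors 19 of the 77 were higher without and 51 with the block, and 7 with the block and early libraries summed.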

How the data were processed

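RNA of primary mouse microglia was measured in 54 libraries made, per the labels' protocols, with QuantSeq 3′ FWD and sequenced as single reads. Per the file headers, the authors deposited whole-number counts for each gene; STAR, Partek, DESeq2 and the build mm10 are named in the submitters' processing notes, without versions or roles. A second table with normalized values was not used. Untreated libraries with the same replicate number were summed, which gave 52 units. edgeR 4.0.16 (R 4.3.3, limma 3.58.1) fitted a quasi-likelihood model of group means to the 13169 genes that passed filterByExpr (minimum count 10), with TMM scaling. A gene is called at a Benjamini-Hochberg adjusted p under 0.05 over all genes tested, and every adjusted p in the report comes from edgeR. log2 CPM uses a prior count of 2.

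Replicate numbers in the titles pair the samples: deviations from group means correlated in all 313 same-number pairs of groups (mean 0.445, lowest 0.154), while the mean over 941 different-number pairs was -0.144. A fit with the number as a block is therefore given beside the main one, where for example 23 genes in place of 1 were called in early acceptors against untreated cells. The biological coefficient of variation was 38.1% without and 20.97% with the block.

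The members, pathway lists and marker lists were chosen with earlier results of these data known. Named genes are 8 members fixed by role, the 3 with the highest mean CPM, the 4 with the smallest p in each of 4 comparisons, and members called in any fit; other pathway genes are named where called, or else by smallest p. Promoter sequences came from RefSeq. Alternatives were DESeq2 1.42.0, no filter, other unit definitions, the block and leaving out each experiment. The edgeR fit was tested on simulated data. Figures used matplotlib 3.10.9. Values of some marker and pathway genes are not reported here.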

Additional observations from a re-analysis of the deposited data

Results flagged for a closer look

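In 6 of 190 groups of 4 units (3.16%), 1 unit lay far from the other 3 in log2 CPM, where chance gives about 1 in 20 such groups. In 5 of the 6 this unit was an acceptor unit of experiment 2, and it was the highest each time. Eif2ak2 stood at 5.459 at 150 min, and the other 3 experiments lay between 4.809 and 4.915. Trim30a stood at 8.264 at 150 min against 7.535 to 7.658. Parp14 stood at 7.412 at 30 min against 6.468 to 6.595. Parp9 stood at 6.274 at 15 min against 5.063 to 5.218, and at 6.304 at 60 min against 5.011 to 5.188. The sixth was Gbp3 in donors at 150 min, where experiment 4 stood at 7.307 and the others lay between 4.486 and 4.896.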

How the results depend on the processing

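Medians of the 46 genes moved by less than the spread between experiments in 179 of 198 re-runs. The replicate block raised the counts in acceptors against untreated cells to 23 at 0 to 60 min and to 2, 2, 8 and 3 at 0, 15, 30 and 60 min, the count of acceptors at 300 min against early ones to 5, and that of early donors against acceptors to 44. Changes of sign were checked for the genes whose values are given per experiment. Among these the block turned Ifit1 (0.42), Oasl2 (0.24), Ifih1 (0.14) and Cmpk2 (0.50) with aSyn. It also turned Gbp2 (0.03) and Bst2 (0.15) in early acceptors. None of these was called, and the block changed no other call among the counts. Of all 46 genes, 26 were negative with aSyn without the block and 13 with it. In early acceptors against untreated cells 46 and 44 were negative, and in early donors against acceptors 2 and 0. For early acceptors against untreated cells the count was 0 with no filter on low counts, 0 with only the groups compared in the fit, 5 with DESeq2 and 18 with the 6 untreated libraries kept apart, which also turned Rsad2 (-0.25) and Usp18 (-0.14) with aSyn. No share of all genes called is given for these settings, so the counts have no background beside them. Keeping the untreated libraries apart treats same-numbered libraries as separate units, though they differed less than libraries of different numbers did. With early libraries summed, the count for early acceptors against untreated cells was 0 without and 3 with the block. Early donors against acceptors gave 0 and 8, and the median of early donors against aSyn was -0.08 and -0.09. Without the untreated unit of experiment 2 and with the block, the counts were 14 with aSyn, 3 in early acceptors and 2 at 30 min, and the acceptor medians were -0.31 at 0 to 60 min and -0.31, -0.28, -0.30, -0.22 and 0.05 at 0, 15, 30, 60 and 150 min. Without experiment 2 and with the block, 11 genes were called in acceptors at 300 min against early ones, 44 in early donors against acceptors and 1 in the difference of changes.

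Leaving out 1 experiment, or the untreated unit of experiment 2, without the block, gave these lowest and highest values. Counts were 0 to 1 with aSyn, 0 to 6 in early acceptors against untreated cells, 0 to 5 in acceptors at 300 min against early ones and 3 to 43 in early donors against acceptors. The shares of all genes called beside the highest of these counts are given above. Medians in acceptors against untreated cells were -0.91 to 0.11 at 0 to 60 min, and -1.08 to 0.15, -1.01 to 0.05, -1.04 to 0.09, -0.89 to 0.15, -0.78 to 0.31 and -0.28 to 0.81 at 0, 15, 30, 60, 150 and 300 min. With aSyn the log2 fold changes were Rsad2 -0.52 to 1.95, Ifit1 -0.58 to 1.18, Ifit3 -1.50 to 0.56, Oasl2 -0.34 to 0.60, Ifih1 -0.39 to 0.74, Eif2ak2 -0.50 to 0.21, Cmpk2 -0.47 to 1.42, Trim30a -0.57 to 0.23, Parp9 -0.42 to 0.32, Isg15 -0.39 to 2.38, Mx1 -0.11 to 1.56, Usp18 -0.60 to 1.30, Parp14 -0.04 to 0.84 and Gbp7 -0.31 to 2.4. In early acceptors against untreated cells they were Gbp2 -0.60 to 1.05, Gbp3 -0.78 to 0.28 and Bst2 -0.31 to 0.55. Bst2 gave -0.13 to 0.36 in acceptors at 300 min against early ones, and Slfn5 -0.01 to 0.84 in early donors against acceptors. The cause of these changes was not tested. With 7807389 to 15537493 counts per library, depth limits mainly Ifnb1, at 2.21 CPM or less.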
